A study of Sus scrofa with 16 samples.

Results

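Red blood cells carry a small set of miRNAs at very high levels, among them miR-451, miR-144 and miR-486. Pig endometrium, the tissue that lines the uterus, was read for 4 arms of these miRNAs on day 10 of pregnancy: miR-451, miR-144 3p, miR-144 5p and miR-486 5p. Each was taken as the group of reads of 20 to 26 nt that share one set of first 20 nt, namely the most abundant such group with the known seed of the miRNA (nucleotides 2 to 8). These are 4 of 23707 read groups that had 30 reads or more in the libraries together. All 4 passed the filter on low counts, as did 9951 groups in all. The 4 were chosen by their identity as red cell miRNAs, but also with the levels of miR-451 and miR-486 at the highest dose in these libraries already known, so the levels are given as a description.

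Small RNA was sequenced from 15 sows that had been fed oestradiol-17β or the carrier alone from insemination. The groups were 4 control sows given the ethanol carrier (sows 1 to 4), 3 sows at 0.05 (sows 5 to 7), 4 at 10 (sows 8 to 11) and 4 at 1000 µg per kg body weight per day (sows 12 to 15). Tissue of sow 7 was extracted more than once, and its 2 libraries, 7a and 7b, were summed. Levels are raw read counts scaled to RPM, the reads of a group per 1000000 reads of 18 to 26 nt, of which the libraries held 2736396 to 11710653. The uterus was flushed with saline before the tissue was taken, and no perfusion step is given in the labels.

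In mouse and human red cell precursors, miR-144 and miR-451 are cut from one primary transcript that the factor GATA1 drives. Dicer cuts miR-144 out of its hairpin. The miR-451 hairpin is too short for Dicer, so Argonaute 2 cuts it instead and a nuclease then trims the 3′ end of the cut strand. miR-486 lies in an intron of ANK1, the gene of the red cell membrane protein ankyrin, and is also made in muscle. In the RefSeq annotation of Sscrofa11.1, MIR451 and MIR144 are next to each other on chromosome 12 and both overlap ERAL1, and MIR486-1 overlaps ANK1 on chromosome 17. In a bulk sample, fewer cells of a type and less of an RNA per cell cannot be told apart.

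The most abundant read of each arm is shown because all later values rest on these sequences. They are written as DNA, with T for U, and the capitals mark the seed. The bases outside the seed were not compared with a reference.

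miR-451: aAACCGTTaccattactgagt

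miR-144 3p: tACAGTATagatgatgtact

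miR-144 5p: gGATATCAtcatatactgtaagt

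miR-486 5p: tCCTGTACtgagctgccccgagt

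The 4 seeds differ, so no members share a seed family. The miR-451 group took 134883 reads over all libraries, which was 94.9% of the 20 to 26 nt reads with its seed. The miR-486 5p group took 5458 reads (93.4% of its seed) and the miR-144 5p group 1694 reads (91.0%). The miR-144 3p group took 3941 reads, only 72.2% of its seed. Just outside the rule, the next group with the miR-144 3p seed held 657 reads and differed by 1 base, the last of the 20, so the counts of this arm are too low by the rule itself. The first 9 bases of miR-144 3p equal the reverse complement of a stretch of miR-144 5p, as in the stem of one hairpin.

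miR-451 was the dominant member in every sow. It ranked as high as 38 among all read groups of a sow, in sow 13, and its mean over the 15 sows was 1619 ± 652 RPM (SD). miR-486 5p averaged 60.5 ± 22.4 RPM, miR-144 3p 47.4 ± 21.7 RPM and miR-144 5p 20.5 ± 9.15 RPM (SD, n = 15 each). The spread between sows was wide for each: the highest sow held 4.10 times the lowest for miR-451, 8.34 times for miR-144 3p, 4.56 times for miR-144 5p and 4.35 times for miR-486 5p.

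For miR-451, the values were 1101, 1323, 1305 and 1384 RPM in control sows 1 to 4. They were 2063, 1309 and 1569 RPM in sows 5 to 7 at 0.05 µg/kg/day, and 2076, 1109, 1162 and 1339 RPM in sows 8 to 11 at 10 µg/kg/day. At 1000 µg/kg/day, sows 12 to 15 had 2344, 3377, 2000 and 824 RPM. The control sows lay close together, whereas the 1000 µg/kg/day sows held both the highest and the lowest value of the study. Of the 4 sows at 1000 µg/kg/day, 3 stood above all control sows and 1 stood below all of them.

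For miR-144 3p, control sows 1 to 4 had 44.7, 30.1, 64.5 and 29.6 RPM. Sows 5 to 7 at 0.05 µg/kg/day had 44.8, 44.1 and 41.8 RPM, and sows 8 to 11 at 10 µg/kg/day had 45.5, 52.6, 45.0 and 40.4 RPM. Sows 12 to 15 at 1000 µg/kg/day had 62.8, 111, 40.6 and 13.4 RPM. The 0.05 and 10 µg/kg/day sows all fell inside the range of the control sows. At 1000 µg/kg/day sow 13 was above that range and sow 15 below it.

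The other strand of the hairpin, miR-144 5p, had 21.2, 12.7, 20.4 and 13.4 RPM in control sows 1 to 4. It had 28.5, 16.9 and 23.1 RPM at 0.05, 21.2, 14.6, 13.4 and 15.4 RPM at 10, and 36.4, 42.4, 18.2 and 9.29 RPM at 1000 µg/kg/day. Sow 13 was again the highest and sow 15 the lowest. This arm rests on few reads, from 58 to 273 a sow.

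For miR-486 5p, control sows 1 to 4 had 29.3, 23.7, 74.7 and 54.0 RPM. Sows 5 to 7 at 0.05 µg/kg/day had 88.5, 48.9 and 72.6 RPM, and sows 8 to 11 at 10 µg/kg/day had 58.3, 34.5, 50.4 and 62.4 RPM. Sows 12 to 15 at 1000 µg/kg/day had 59.3, 103, 88.8 and 59.4 RPM. Sow 13 was the highest once more, but sow 15, the lowest for the other 3 arms, lay in the middle, and the lowest value was that of control sow 2. The sows of each dose overlapped the control sows.

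**Figure D1:**
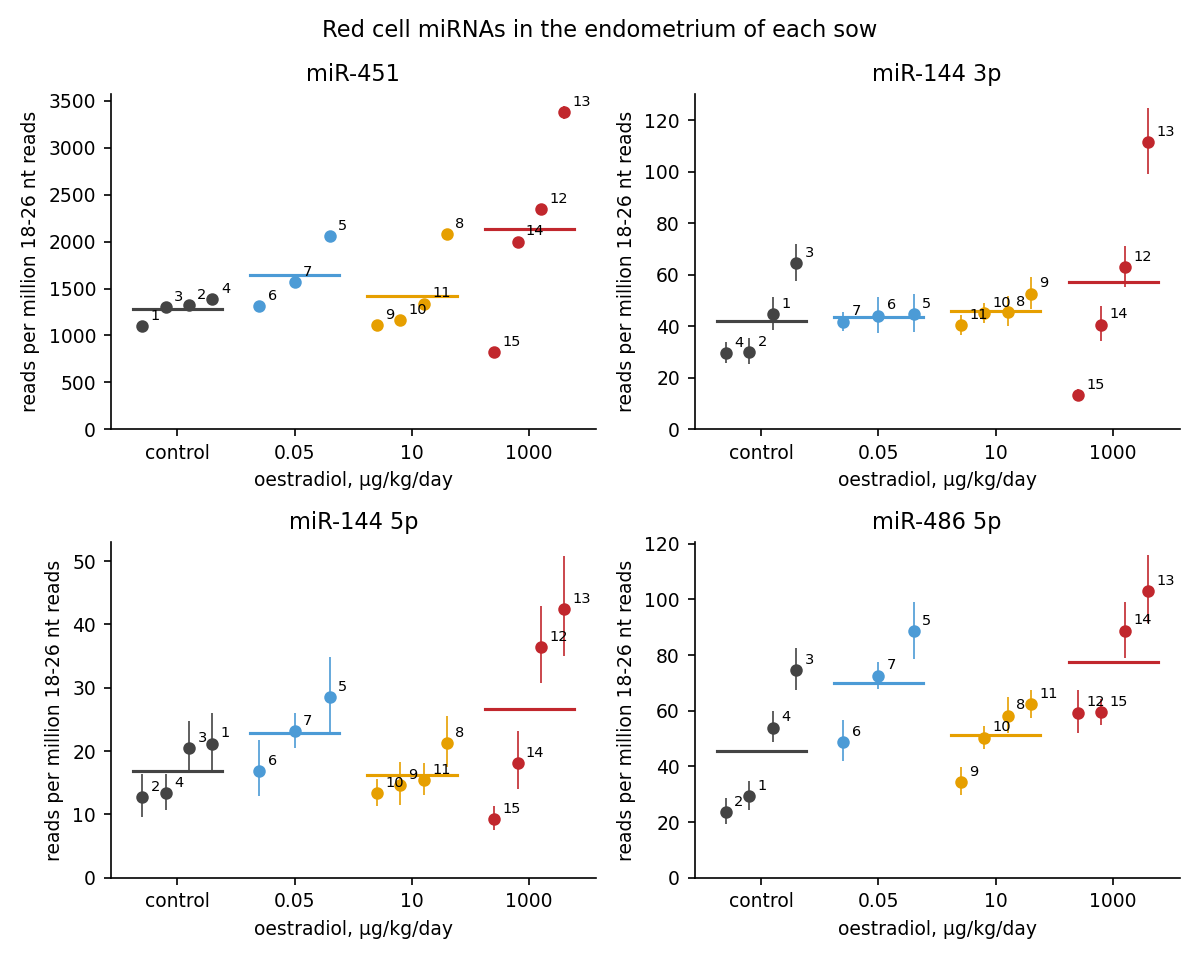
RPM of the 4 arms in each sow (points, numbered by sow) by oestradiol dose, with exact 95% Poisson intervals for counting error only and group means (lines). Sow 13 at 1000 µg/kg/day is the highest in every panel, with 3377 RPM of miR-451, and sow 15 is the lowest for all but miR-486 5p.

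The libraries of sow 7 show how far 2 extractions of one animal can differ. Between the libraries of sow 7, miR-451 had 1528 RPM in 7b (95% Poisson interval 1499 to 1557) and 1632 RPM in 7a (1595 to 1669), a ratio of 0.936. miR-144 3p had 32.8 RPM in 7b (28.8 to 37.3) and 55.6 RPM in 7a (49.04 to 62.8), a ratio of 0.590. For miR-144 5p the ratio was 0.607 and for miR-486 5p 0.829. The intervals of the 2 libraries did not overlap for miR-451 and both arms of miR-144, so for these the difference between libraries of one sow exceeded counting error. For miR-486 5p they overlapped narrowly (61.3 to 73.5 RPM in 7b, 73.1 to 89.7 RPM in 7a). Such an overlap does not show that the difference stayed within counting error. The libraries also differ in length profile, with 6.38% of reads of 40 nt or more in 7b and 2.11% in 7a, and its part in the difference was not tested. Intervals cover counting error only, as the reads carry no molecular identifiers.

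As a measure of blood content by dose, the 4 arms were set against control in an edgeR quasi-likelihood fit over all 9951 read groups. At 1000 µg/kg/day, miR-451 averaged 2136 ± 1052 RPM, against 1279 ± 123 RPM in control (SD, n = 4 each), and miR-486 5p averaged 77.6 ± 21.9 RPM, against 45.4 ± 23.5 RPM in control. miR-144 3p averaged 57.1 ± 41.5 RPM, against 42.2 ± 16.4 RPM in control, and miR-144 5p 26.6 ± 15.5 RPM, against 16.9 ± 4.51 RPM in control. The fitted log2 differences at this dose, the contrast known when the arms were picked, were 0.84 for miR-451 (95% interval 0.17 to 1.5), 0.86 for miR-486 5p (0.24 to 1.48), 0.71 for miR-144 5p (−0.076 to 1.5) and 0.52 for miR-144 3p (−0.56 to 1.60). The median log2 difference over all groups tested was 0.013.

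None of the 4 arms passed at an adjusted p under 0.05 at 1000 µg/kg/day (adjusted p = 1 for each, edgeR with Benjamini-Hochberg adjustment over all groups). No other read group passed either: 0 of 9951 were called (0%), with 445 (4.47%) at an unadjusted p under 0.05, and DESeq2 also called 0. In 1.03% of the groups tested all 4 dosed sows lay above all 4 control sows, and in 1.4% all lay below. None of the 4 arms was among them.

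At 0.05 µg/kg/day the log2 differences were 0.61 for miR-486 5p (95% interval −0.054 to 1.28), 0.41 for miR-144 5p (−0.43 to 1.25), 0.34 for miR-451 (−0.37 to 1.05) and 0.032 for miR-144 3p (−1.13 to 1.19). At 10 µg/kg/day they were 0.27 for miR-486 5p (−0.35 to 0.89), 0.25 for miR-451 (−0.41 to 0.91), 0.24 for miR-144 3p (−0.83 to 1.31) and 0.027 for miR-144 5p (−0.76 to 0.81). Every interval at these doses holds zero, and their width still allows differences of more than 0.8 on the log2 scale in each arm. No arm passed (adjusted p = 1 for each, edgeR). Over all groups edgeR called 0 of 9951 (0%) at each of these doses, with 256 (2.57%) at 0.05 and 317 (3.19%) at 10 µg/kg/day at an unadjusted p under 0.05, and DESeq2 called 0 at 0.05 and 1 (0.0101%) at 10 µg/kg/day. The dosed sows lay wholly above the control sows in 2.25% and wholly below them in 1.61% of groups at 0.05 µg/kg/day, and in 0.563% and 0.583% at 10 µg/kg/day, with none of the 4 arms among them. The comparisons share their control sows.

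**Figure D2:**
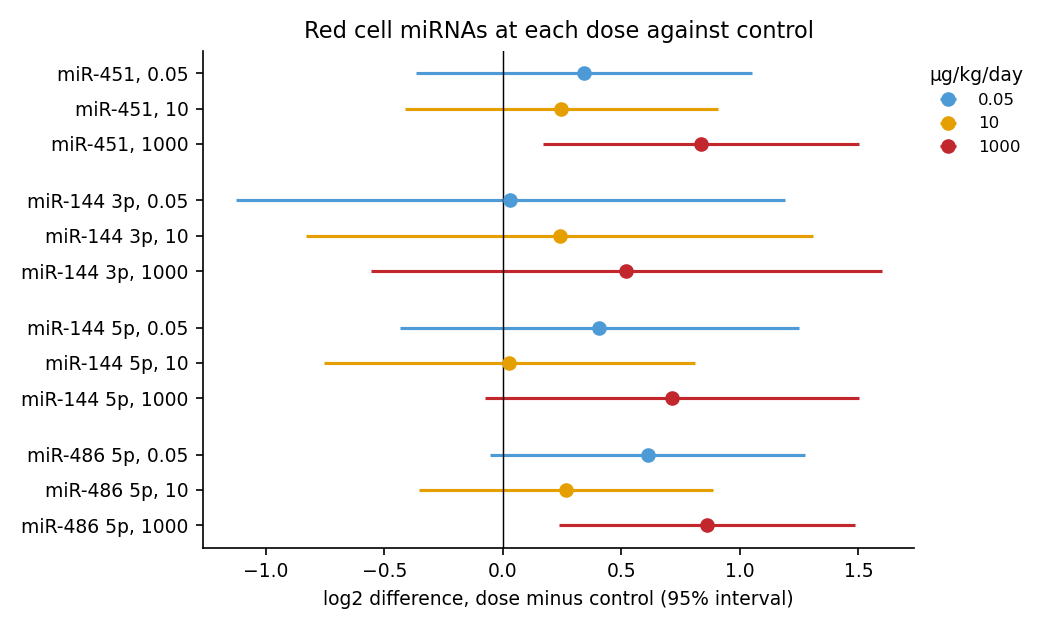
Log2 difference of each arm, dose minus control, from the edgeR fit over 15 sows (points) with 95% intervals (bars). The intervals at 0.05 and 10 µg/kg/day cross zero, and at 1000 µg/kg/day those of miR-451 (0.17 to 1.5) and miR-486 5p (0.24 to 1.48) do not, but the arms were chosen with the levels at this dose known, and no arm passed the adjusted threshold.

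Single sows moved the differences at 1000 µg/kg/day. Without sow 13, the log2 difference was 0.44 for miR-451, 0.31 for miR-144 5p, −0.13 for miR-144 3p and 0.62 for miR-486 5p. Without sow 15 they were 1.13, 1.04, 0.88 and 1.01 for the same arms, and still none passed (lowest adjusted p = 0.515, edgeR). For miR-486 5p the largest move came from control sow 3, without which the log2 difference was 1.21. Sow 13 also stood apart in miRNAs of other cells: the summed level of miR-143 and miR-145, typical of smooth muscle, was 119579.5 RPM in sow 13, the highest of 15 sows, against 44017 to 69874 RPM in control sows. In sow 13 the summed miR-126 arms of endothelium and platelets were the highest as well (8178 RPM, against 4474 to 6794 RPM in control sows), and the stromal miR-199a and miR-214 were the lowest (11505 RPM, against 12312 to 22019 RPM in control sows). The summed leukocyte families were also the lowest in sow 13, at 235 RPM, against 359 to 545 RPM in control sows. Its sum of the 9 other red cell families described below was 8975 RPM, rank 11 of 15 from the highest. The control sows had 8642 to 10786 RPM for that sum. Sow 15 had the lowest smooth muscle sum, 39480 RPM. The part of these shifts in the red cell values was not tested.

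The libraries also differ in length profile, in classes formed from the read lengths and not from the labels. Class A holds sows 1, 2, 5, 8, 9 and 12, class B sows 3, 4, 7, 10, 11 and 15, and class C sows 6, 13 and 14, with no control sow. Sow 7 was classed on its summed libraries, of which 7a alone meets the limits of class B and 7b those of class C. miR-451 averaged 1670 ± 554 RPM in class A, 1264 ± 252 RPM in class B and 2229 ± 1053 RPM in class C (SD, n = 6, 6 and 3). miR-486 5p averaged 48.9 ± 24.5, 62.3 ± 9.80 and 80.2 ± 28.1 RPM in classes A, B and C. With class as a covariate, the log2 differences at 1000 µg/kg/day were 0.44 for miR-451, 0.71 for miR-486 5p, 0.47 for miR-144 5p and −0.097 for miR-144 3p, none of which passed (adjusted p = 1, edgeR).

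The arms of the miR-144 and miR-451 transcript varied together across the 15 sows. Pearson's r of log2 (RPM + 1) was 0.857 for miR-451 and miR-144 5p (adjusted permutation p = 0.00042, 6 pairs tested), with a Spearman's rho of 0.700 (adjusted permutation p = 0.0216). It was 0.810 for both arms of miR-144 (adjusted permutation p = 0.00084), with rho 0.675 (adjusted permutation p = 0.0216). For miR-451 and miR-144 3p, r was 0.691 (adjusted permutation p = 0.0105) but rho only 0.318 (adjusted permutation p = 0.296), so that the relation passed on the level scale and not in the ranks. All members share the library and its total, and both members of a pair are read from the same RNA sample.

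miR-486 5p comes from another gene. Its r was 0.593 with miR-451 (adjusted permutation p = 0.0294), 0.497 with miR-144 5p (adjusted permutation p = 0.0711) and 0.316 with miR-144 3p (adjusted permutation p = 0.25). The matching rho values were 0.554, 0.525 and 0.218 (adjusted permutation p = 0.0705, 0.0705 and 0.436). Its level was 3.92 ± 1.37% of that of miR-451 (SD, n = 15), and the share ran between 1.79% in control sow 2 and 7.21% in sow 15, the next highest being 5.72% in control sow 3. miR-144 5p kept a narrower share, 0.908 to 1.93% of miR-451, whereas that of miR-144 3p ran between 1.62 and 4.94%. Whether the r values of miR-486 5p and of the miR-144 arms differ was not tested.

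Part of these relations rested on the extreme sows. Without the 2 sows farthest from the median of the first-named arm, r fell to 0.713 for miR-451 and miR-144 5p (adjusted permutation p = 0.0377). It fell to 0.603 for both arms of miR-144 (adjusted permutation p = 0.0866), 0.438 for miR-451 and miR-144 3p (adjusted permutation p = 0.21) and 0.505 for miR-451 and miR-486 5p (adjusted permutation p = 0.157), so these 3 relations no longer passed. For miR-144 3p and for miR-144 5p with miR-486 5p, r was 0.289 and 0.392 (adjusted permutation p = 0.341 and 0.224). Sow 13 alone took the relation of miR-451 with miR-144 3p past the threshold: without it, r was 0.522 (adjusted permutation p = 0.104). For miR-451 with miR-486 5p, leaving out any one of sows 5, 9, 13 and 14 gave r between 0.476 and 0.568, past the threshold in none (lowest adjusted permutation p = 0.052).

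Within the length classes the r values stayed positive for every pair. For miR-451 and miR-144 5p, r was 0.763 among the class A sows and 0.846 among the class B sows (n = 6 each, exact permutation, adjusted p = 0.198 and 0.129). For both arms of miR-144 it was 0.681 and 0.813 in classes A and B, and for miR-451 and miR-144 3p it was 0.363 and 0.737. The relation of miR-451 and miR-486 5p stood at 0.840 in class A against 0.360 in class B, and that of miR-144 5p and miR-486 5p was 0.780 and 0.728. For miR-144 3p and miR-486 5p it was 0.509 and 0.371. None passed within a class, and class C holds too few sows for a value.

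**Figure D3:**
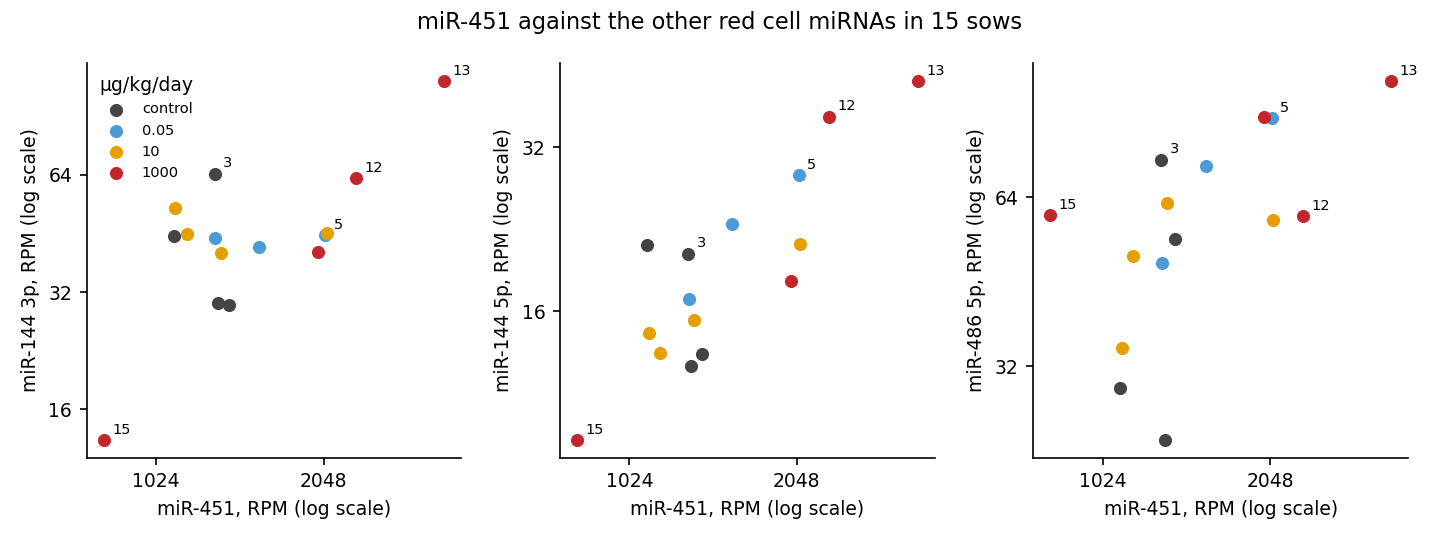
RPM of miR-144 3p, miR-144 5p and miR-486 5p against miR-451 in 15 sows, log scales, coloured by dose. miR-144 5p is higher where miR-451 is higher (r = 0.857), sows 13 and 15 hold the ends for miR-144 3p (r = 0.691), and sow 15 lies off the trend for miR-486 5p (r = 0.593).

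Among 3009 read groups with a mean of at least 10 RPM, the median r with miR-451 was −0.039. miR-144 5p ranked 2 and miR-144 3p ranked 4 in likeness to miR-451, whereas miR-486 5p ranked 27. In likeness to miR-486 5p, where the median r was 0.085, miR-451 ranked only 115, miR-144 5p 266 and miR-144 3p 772. The 5 groups most like miR-451 over the 15 sows are shown as the pattern nearest to it.

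miR-451 starting 1 base later, r 0.961: aaccgttaccattactgagt

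miR-144 5p, r 0.857: ggatatcatcatatactgta

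miR-126 3p starting 1 base later, r 0.737: cgtaccgtgagtaataatgt

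miR-144 3p, r 0.691: tacagtatagatgatgtact

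An unnamed read group, r 0.681: agtggttttaccctatggta

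The first is an end variant of miR-451 itself, at 22.1 RPM. The last has none of the seeds used here and was not compared with a reference, so it can still be a form of a known miRNA. The 5 groups most like miR-486 5p were a different kind: none had a seed on the lists used here, and their r ran between 0.772 and 0.834. The closest of them were cgcgacctcagatcagactt (r 0.834, mean 17.8 RPM) and gaatacgtgtctggaacgct (r 0.811, mean 26.5 RPM). These r values are descriptions over 15 sows that share depth and library make-up.

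Other miRNAs that red cells carry were read as 9 further seed families, each by its leading group. The list as planned also named miR-4732 and miR-486 3p, which were not among the seeds used. Their median r with miR-451 was 0.20 (range −0.23 to 0.33, 7 of 9 positive) and with miR-486 5p 0.23 (range −0.36 to 0.46, 6 of 9 positive). A seed does not fix the miRNA: the leading group of the miR-15/16 family held only 37.8% of the reads with that seed, that of the miR-96 family 67.3%, and either may be another miRNA of the same seed, so the values of the 9 are values of seed families. The most abundant of them, the seed family of miR-25, miR-92 and miR-363, stood at 3400 ± 439 RPM (SD, n = 15) with r 0.051, and its r with miR-486 5p was 0.458. The families of miR-17, miR-210 and miR-182, at 1442, 1310 and 1271 RPM, had r of 0.20, −0.23 and 0.25 with miR-451. These families are also made by other tissues. At 1000 µg/kg/day the median log2 difference of the 9 was 0.16, with 6 higher and 3 lower and none called (edgeR), beside a median of 0.013 over all groups tested, of which 5126 of 9951 lay higher and 0 were called.

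For the 6 leukocyte families the median r was 0.0073 with miR-451 (range −0.35 to 0.16, 3 of 6 positive) and −0.31 with miR-486 5p (range −0.56 to −0.076, 0 of 6 positive). With miR-451, miR-150 of lymphocytes had r 0.080, miR-142 5p 0.055, and miR-223, of neutrophils and monocytes, −0.35. miR-126 3p and 5p, of endothelium, had r of 0.50 and 0.44 with miR-451, and −0.036 and 0.032 with miR-486 5p. miR-122, a liver miRNA found in plasma, was present at 15.4 to 27.95 RPM with r 0.62 with miR-451 and 0.64 with miR-486 5p. None of these families was called at any dose (edgeR).

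The libraries held miRNAs of the cell types that make up the uterine wall, which most organs share, so these levels do not settle the tissue label. The leading groups of the miR-200b and miR-200a seed families, typical of epithelium, had 9223 and 11500 RPM on average. The stromal miR-199a 5p and 3p had 10754 and 8980 RPM, and miR-143 had 55219 RPM. With miR-451, r was 0.30 in the median for the 2 epithelial families, −0.24 for the 3 stromal and 0.40 for the 2 smooth muscle families.

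**Figure D4:**
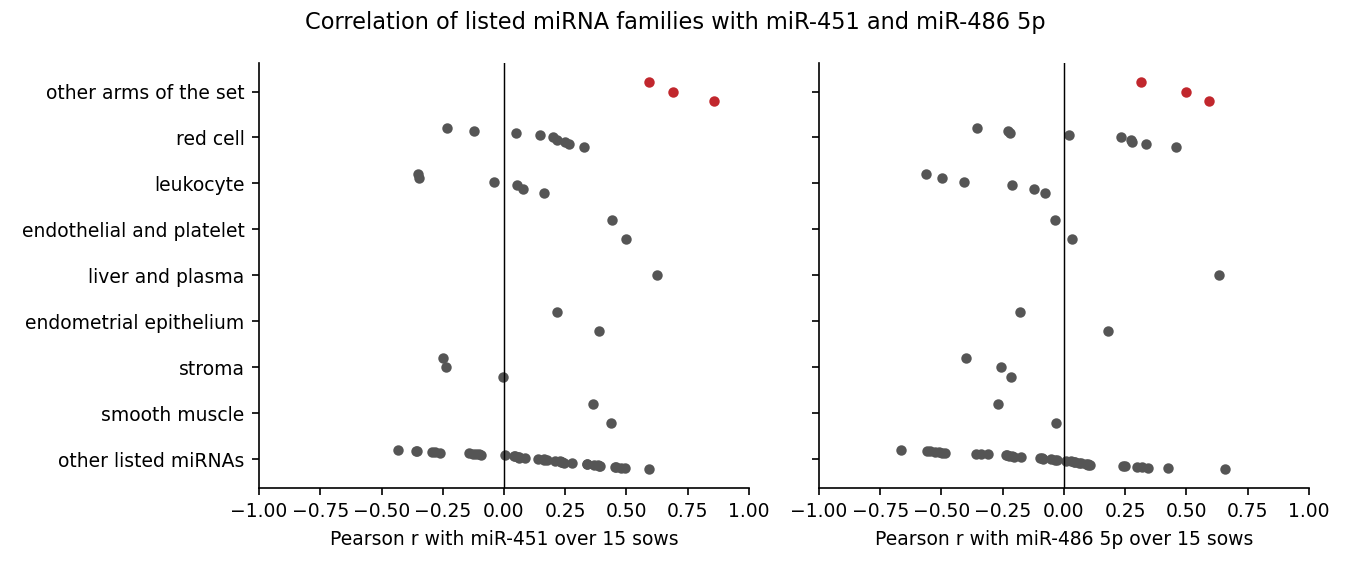
Pearson r over 15 sows of the leading read group of each seed family with miR-451 and with miR-486 5p, by cell type list (1 point a family). The other 3 arms lie between 0.593 and 0.857 for miR-451, to the right of the 9 red cell families (−0.23 to 0.33). For miR-486 5p, miR-144 3p (0.316) lies among the red cell families (−0.36 to 0.46), and miR-144 5p (0.497) and miR-451 (0.593) lie just right of them. miR-122, of liver and plasma, lies at 0.62 and 0.64. The 39 other listed families run from −0.43 to 0.59 for miR-451, where miR-22 (0.593) lies level with miR-486 5p. For miR-486 5p they run from −0.67 to 0.66, and miR-128 (0.658) lies to the right of miR-451.

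The 3′ ends of miR-451 formed a ladder. The template of an arm is the most frequent base at each position past 20 in its own reads, not a reference hairpin. The forms that match the template are shown with the bases past 20 in capitals, since the trimmed end is what sets them apart.

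miR-451, 20 nt: aaaccgttaccattactgag

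miR-451, 21 nt: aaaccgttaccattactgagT

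miR-451, 22 nt: aaaccgttaccattactgagTT

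miR-451, 23 nt: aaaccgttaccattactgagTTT

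miR-451, 26 nt: aaaccgttaccattactgagTTTAGT

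miR-451, 29 nt: aaaccgttaccattactgagTTTAGTAAT

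Over the 15 sows, 48.2 ± 4.43% of the 20 to 26 nt reads of miR-451 were 21 nt long, 23.5 ± 1.53% were 22 nt and 20.6 ± 3.09% were 23 nt (SD). Reads of 20 nt made up 2.39 ± 0.390%. After a gap at 24 nt (0.490%) and 25 nt (0.879%), a further form of 26 nt held 3.97 ± 0.772%. Reads over 26 nt, counted by their first 20 nt alone, were 0.715 ± 0.225% of the reads of 20 nt or more. Few of those of 27 to 29 nt matched the template (25.7% at 27 nt, 4.69% at 28 nt and 16.5% at 29 nt). Longer ones could not be compared, as the template ends at 29 nt.

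The template ends at 29 nt, because only 2 of the reads used to build it ran on past base 29. The form of 29 nt (19 reads) is thus where the comparison stops, and longer forms cannot be judged. Its last bases are complementary to earlier ones, as in a hairpin. In the line that follows, capitals mark bases 12 to 17 and 24 to 29, which are reverse complements and leave a loop of 6 nt between them.

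miR-451, 29 nt, pairing stretches: aaaccgttaccATTACTgagtttAGTAAT

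The miR-144 arms and miR-486 5p had other profiles. miR-144 3p ended at 20 nt in 99.8 ± 0.300% of its reads (SD, n = 15), with 0 reads of 21 nt among 3941. miR-144 5p was mostly 23 nt (63.8%) or 22 nt (28.9%). miR-486 5p was 23 nt in 54.9%, 22 nt in 21.4% and 21 nt in 17.7% of reads. As the 20-nt rule counts no shorter read, ends before base 20 are not seen in any arm.

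The SD of read length in a sow was 1.22 ± 0.062 nt for miR-451, against 0.931 ± 0.053 nt for miR-486 5p, 0.732 ± 0.12 nt for miR-144 5p and 0.095 ± 0.13 nt for miR-144 3p (mean ± SD over 15 sows). Since miR-144 3p lies at the 20 nt floor of the counting, which leaves out shorter reads and those that differ at base 20, its narrow spread is set by that rule and is given as a description. miR-451 had the wider spread in 15 of 15 sows against miR-144 5p and in 15 of 15 against miR-486 5p (exact sign-flip permutation test, two-sided, p = 6.1e-05 for each, the smallest it can give, and the same after adjustment). Against miR-486 5p the difference of 0.29 nt rested on the reads of 25 and 26 nt. Limited to 20 to 24 nt it was −0.024 nt (exact sign-flip permutation p = 0.066).

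**Figure D5:**
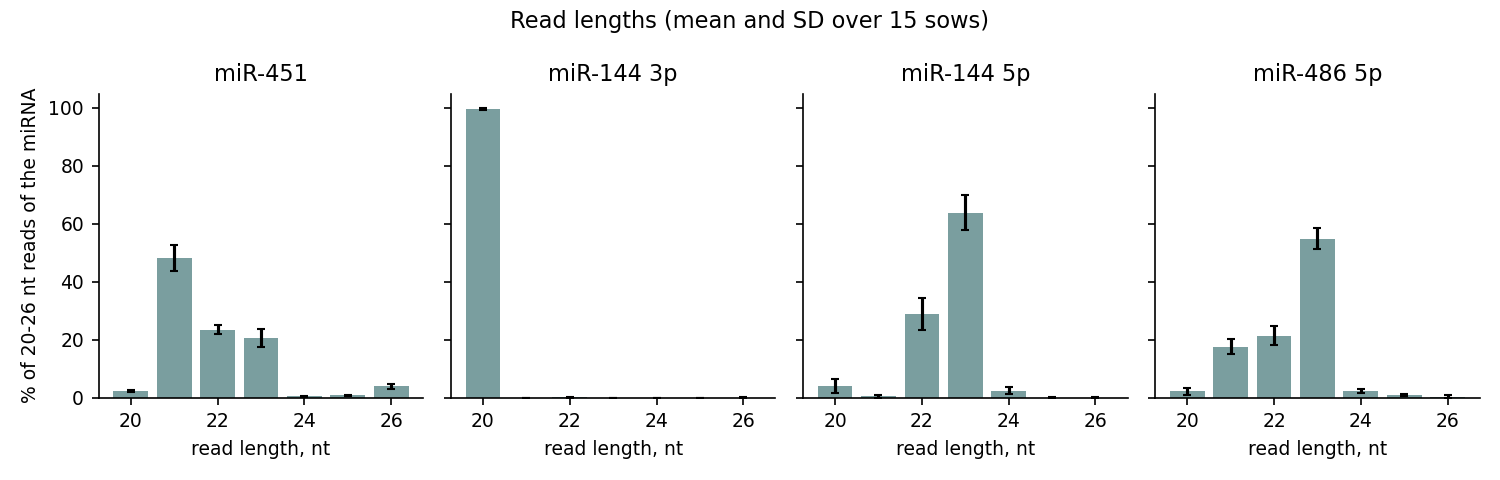
Share of the 20 to 26 nt reads of each arm by read length (bars, mean over 15 sows, with SD). miR-451 spreads over 21, 22 and 23 nt (48.2, 23.5 and 20.6%) with a further form at 26 nt (3.97%). miR-486 5p also spreads over 21, 22 and 23 nt (17.7, 21.4 and 54.9%), and miR-144 3p stands at 20 nt alone, the floor of the counting.

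The last base of miR-451 departed from the template more often than the same base inside a longer read. At position 21, 12.9% of the reads that end there had C in place of the template base, against 0.702% of longer reads, and at position 22 it was 10.9% against 0.395%. This was not confined to miR-451: at position 23, C ended 14.01% of miR-144 5p and 12.02% of miR-486 5p reads, against 4.44 and 0% of longer reads. miR-486 5p also had A at its 23rd base in 16.2% of reads ending there and in 28.7% of longer ones. Over the 15 sows, 86.6 ± 1.77% of miR-451 reads matched the template throughout (SD). As the template was built from these same reads, part of this share is set by how it was built.

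The 5′ ends also varied. Reads that start 1 base later amounted to 1.45% of the count of miR-451 (1.14 to 1.71% over sows) and reads that start 1 base earlier to 0.036%. For miR-144 3p the earlier start came to 4.54%, and the later start came to 5.84% for miR-144 5p and 2.33% for miR-486 5p.

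The ends of miR-451 did not pass a test by dose. The mean length was 21.8 ± 0.13 nt at 1000 µg/kg/day, against 21.9 ± 0.024 nt in control (SD, n = 4 each; exact permutation p = 0.286). It was 21.9 ± 0.14 nt at 10 and 21.9 ± 0.095 nt at 0.05 µg/kg/day (exact permutation p = 0.429 and 0.714). Sow 13, with the most miR-451, also had the shortest mean length, 21.6 nt, and the largest share of 21 nt reads, 58.4%. Sow 8 had the longest mean length, 22.1 nt, with 39.4% of 21 nt.

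Template-matched reads made up 87.8 ± 0.61% at 10 µg/kg/day, against 86.1 ± 1.16% in control, the smallest p of the 18 tests of ends and ratios (exact permutation p = 0.0571, adjusted p = 0.791, where 4 against 4 sows can reach 0.0286). They were 87.1 ± 2.11% at 1000 and 85.1 ± 2.32% at 0.05 µg/kg/day. Reads over 26 nt made up 0.63 ± 0.22% at 1000 µg/kg/day, against 0.77 ± 0.26% in control (exact permutation p = 0.429). Their share moved with the length class of the library, 0.912% in class A, 0.507% in class B and 0.736% in class C.

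The balance within the miR-144 hairpin was also measured. The 3p arm held 69.4 ± 5.68% of the reads of both arms over 15 sows (SD, range 59.0 to 78.3%). It held 66.0 ± 5.99% at 1000 µg/kg/day, against 70.7 ± 3.61% in control (exact permutation p = 0.257), 74.0 ± 4.62% at 10 (p = 0.257, exact permutation) and 65.9 ± 5.77% at 0.05 µg/kg/day (p = 0.229, exact permutation). The log2 ratio of miR-451 to miR-144 3p was 5.43 ± 0.45 at 1000 µg/kg/day, against 4.99 ± 0.60 in control (exact permutation p = 0.286). After adjustment over the 18 tests, no p was under 0.791.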

How the data were processed

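The deposited files give, per library, each distinct read of 17 to 49 nt and its raw count, with no normalization by the authors. The submitters' processing notes name FastQC and 4 genome builds without giving their role: GRCh37.p5, GRCm38, Sscrofa10.2 and UMD3.1. The adapter step and aligner are not given in the sources used here. TRIzol RNA and a NEBNext small RNA kit were used, per the labels' protocols.

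Depth was 4497096 to 14945018 reads per library. Reads of 20 to 26 nt were summed by their first 20 nt. The members and lists were chosen with earlier results of these data known. No miRNA sequence table was used, so each member is the leading group with the known seed, and the likeness search, planned over annotated miRNAs, ran over all groups of at least 10 RPM. A family name means that bases 2 to 8 carry one of 68 seeds known from general knowledge. The named read groups are the 4 arms, the libraries of sow 7, the 5 groups most like miR-451 and likewise for miR-486 5p, and up to 4 leading families a list.

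The fit used edgeR 4.0.16 in R 4.3.3 (TMM on the 18 to 26 nt total, filterByExpr, robust quasi-likelihood F-test, all 15 sows, call at an adjusted p under 0.05). TMM factors ran between 0.804 and 1.17, the tested groups held 80.0 to 90.3% of 18 to 26 nt reads, and the biological coefficient of variation was 0.324. DESeq2 1.42.0 was an alternative. The code was tested on simulated data. Correlations used log2 (RPM + 1) and 100000 permutations (exact within classes), and end measures used exact permutation of group means, two-sided, in Python 3.11.15 with scipy 1.17.1. A sow is in length class A if fewer than 8% of its reads are 17 to 19 nt long (libraries of sow 7 summed). The rest are in class B where fewer than 5% reach 40 nt, and otherwise in class C.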

Additional observations from a re-analysis of the deposited data

How the results depend on the processing

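No paired analysis was possible because the groups share no replicate numbers. No arm passed at any dose under any of 300 alternative values (lowest adjusted p = 0.515, edgeR, at 1000 µg/kg/day without sow 15), and the directions of miR-451 and miR-486 5p held in all of them, with sizes that moved. With 1 sow left out, miR-451 ran between 0.20 and 0.42 at 0.05, 0.011 and 0.33 at 10, and 0.44 and 1.13 at 1000 µg/kg/day, and miR-486 5p between 0.42 and 0.97, 0.075 and 0.62, and 0.62 and 1.21. The cause of the changes that follow was not tested, beyond the fewer sows where sows were left out.

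The log2 difference of miR-144 3p at 0.05 µg/kg/day turned to −0.061 with the total of all reads, −0.24 with length class as a covariate, −0.048 with library 7b alone and −0.028 with reads grouped by their first 18 nt. At 1000 µg/kg/day it turned to −0.097 with length class. miR-144 5p at 10 µg/kg/day turned to −0.068 with the 18 to 26 nt total alone. With 1 sow left out, these 3 values ran between −0.13 and 0.31, −0.13 and 0.88, and −0.12 and 0.16. Calls at 10 µg/kg/day were 1 without the filter and 1 with DESeq2, and 0 to 1 with 1 sow left out. At 1000 µg/kg/day 1 group was called in a fit of dose and control sows alone.

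Centred by dose group, r of miR-451 and miR-486 5p was 0.458 (adjusted permutation p = 0.124). The values within length classes and without the 2 farthest sows stand in the report (r 0.363, 0.763, 0.840 and 0.681 in class A, 0.737, 0.846, 0.360 and 0.813 in class B, and 0.438, 0.505 and 0.603 without the 2 sows). With 1 sow left out, r ran between 0.522 and 0.747 for miR-451 and miR-144 3p, 0.476 and 0.690 for miR-451 and miR-486 5p, and 0.358 and 0.592 for miR-144 5p and miR-486 5p.

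The length spread of miR-451 minus miR-486 5p turned to −0.024 nt with 20 to 24 nt reads. Reads over 26 nt at 0.05 µg/kg/day turned to 0.045 percentage points above control with library 7a alone. With 1 sow left out, the end measures whose sign turned ran, dose minus control, between −0.12 and 0.081 (over 26 nt, 0.05), −0.14 and 0.067 (over 26 nt, 10), −0.31 and 1.03 (22 nt, 10), −1.41 and 0.15 (22 nt, 1000), −1.88 and 0.27 (template match, 0.05) percentage points, −0.075 and 0.019 nt (mean length, 0.05), and −0.30 and 0.11 (log2 ratio of miR-451 to miR-144 3p, 10).

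Depth limits miR-144 5p most, with 58 to 273 reads a sow. With 3 or 4 sows a group, the intervals leave differences of more than 1.5-fold in either arm of miR-144 within reach.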

Other observations

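Reads of miR-126 3p, an endothelial and platelet miRNA, that start 1 base later were a top hit of the likeness search. They averaged 20.7 RPM (13.5 to 36.2 RPM over sows), which is 0.371% of the level of the usual form. Their r over 15 sows was 0.903 with miR-144 5p, 0.737 with miR-451, 0.710 with miR-144 3p and 0.431 with miR-486 5p. The usual form had r of 0.576 with miR-144 5p, 0.499 with miR-451 and −0.036 with miR-486 5p. The difference between those values was not tested.

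Chosen after its values were seen, a read group with the seed of miR-1 and miR-206, miRNAs of muscle, was second in likeness to miR-144 3p: tggaatgtaaagaagtatgt. It averaged 435 RPM and ran between 150 and 1173 RPM over sows, with r 0.775 with miR-144 3p, 0.701 with miR-144 5p, 0.589 with miR-451 and 0.078 with miR-486 5p.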
